A study of Homo sapiens with 12 samples.

Results

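This comparison set the baseline transcriptome of PANC-1 against that of MIA PaCa-2, a pair of human pancreatic carcinoma lines, across all measured genes. Its members are the libraries that the labels give as control siRNA: 3 of PANC-1 and 3 of MIA PaCa-2, or 6 of the 12 libraries of the series. Both lines were seeded and grown for 72 h, then exposed for 4.5 h to negative control siRNA at 25 nM by lipofection, and were collected after an overnight recovery, so these are transfected cells and not untouched cultures. The remaining 6 libraries are the same lines given siRNA against RBM3. PANC-1 is listed as derived from pancreatic duct and MIA PaCa-2 as pancreatic epithelial carcinoma, and each line stands for 1 tumour. The labels name 2 growth media, RPMI1640 and DMEM, without saying which line grew in which, so medium and line cannot be told apart. Total RNA is the stated molecule, although cytoplasmic RNA is written elsewhere in the labels. Nothing says whether the replicates came from separate cultures, and if they did not, every p-value here reflects technical spread. No batch is given.

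Pancreatic ductal adenocarcinoma arises from the exocrine pancreas and commonly loses CDKN2A and SMAD4. Its tumours are commonly sorted into a classical type, which keeps an endodermal, gland-forming programme under factors such as GATA6 and FOXA2, and a basal-like type, which carries squamous genes such as TP63. Carcinoma cells also differ in how far they keep epithelial junctions (E-cadherin, EPCAM) or carry mesenchymal proteins (vimentin, N-cadherin). PANC-1 and MIA PaCa-2 are both used as poorly differentiated models.

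Total counts ran from 14217185 to 39652502 per library, and TMM scaling factors from 0.965 to 1.05. Levels below are CPM, counts scaled to library size with TMM factors, given for replicates 1, 2 and 4 in that order, and fold changes are PANC-1 over MIA PaCa-2 on the log2 scale. Across genes, log2 levels (CPM + 0.5) correlated at 0.977 to 0.992 within a line and at 0.804 to 0.815 between lines. PANC-1 replicate 1 stood slightly apart, at 0.977 and 0.979 with replicates 2 and 4, which correlated with each other at 0.992. MIA PaCa-2 replicate 1 did so by less, at 0.982 and 0.985 with replicates 2 and 4, which correlated at 0.989. For 11 genes at 50 CPM or more in MIA PaCa-2 and at most 0.5 in PANC-1 in the RBM3 siRNA libraries (PANC-1 replicate 3 aside), the summed level in PANC-1 replicate 1 was 0.288% of that in MIA PaCa-2 controls, against 0.0598% and 0.0620% in replicates 2 and 4. The reverse share, of 55 PANC-1 genes in MIA PaCa-2 controls, was 0.0934% to 0.0981%. The part of carry-over between libraries in such low levels was not tested.

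Of 16113 genes tested, 4478 (27.8%) were higher in PANC-1 and 4245 (26.3%) were lower at an adjusted p under 0.05, so 54.1% differed between the lines. In 10148 genes (63.0%) every PANC-1 library lay on the same side of every MIA PaCa-2 library. The median log2 fold change over all genes was 0.01. Genes were tested where edgeR's low-count filter passed them, so the gene lists below are counted over members tested, and a member that passed through 1 line alone had to differ. Of the genes that were called, 68.9% differed by 2-fold or more. Differences of 16-fold or more were called for 1053 genes higher in PANC-1 and 412 lower. At least 1 CPM in all 3 libraries was reached by 13428 genes in PANC-1 and 12868 in MIA PaCa-2. The 11843 genes shared between these sets were 88.2% of the first and 92.0% of the second. Only 808 genes (5.01%) had a 95% interval of the difference within 0.5 log2 units of 0 in limma-voom. The scatter of mean levels shows this as a broad diagonal with a column of PANC-1 genes at the left edge and a sparser row of MIA PaCa-2 genes at the bottom.

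**Figure D1:**
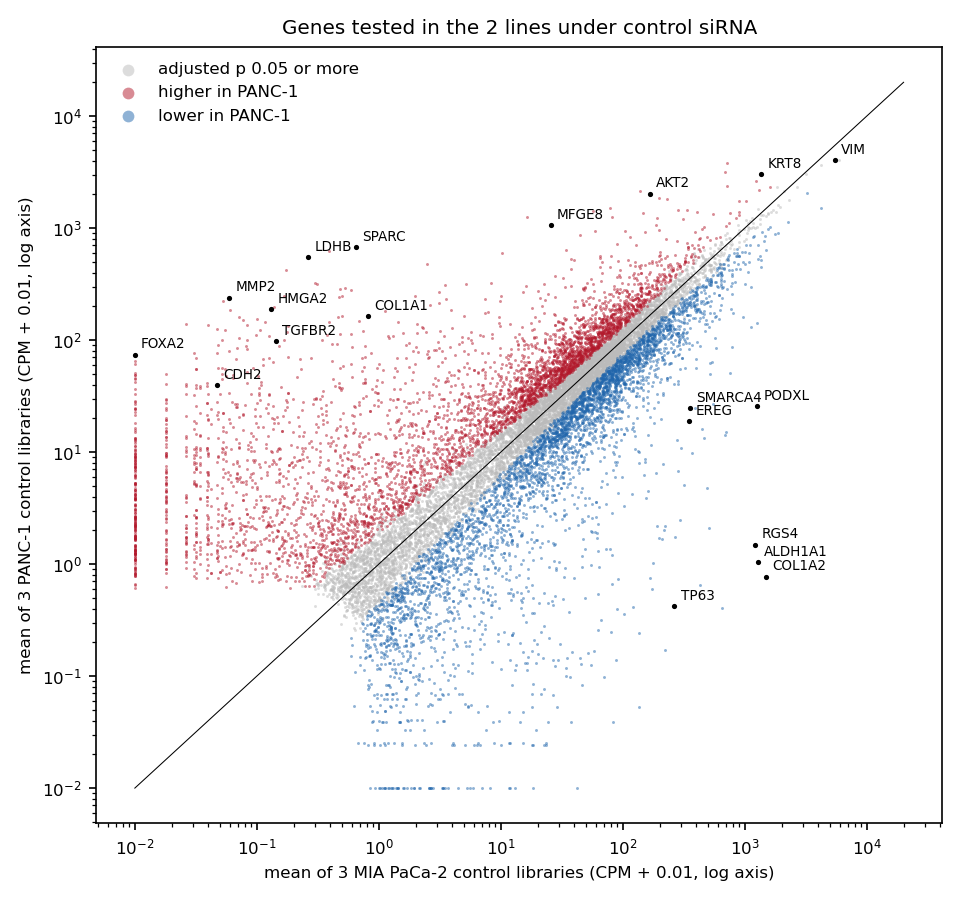
Mean CPM of the 3 MIA PaCa-2 (x axis) and 3 PANC-1 (y axis) control libraries for the 16113 genes tested, both with 0.01 added and on log axes, coloured by the edgeR call, with the diagonal of equal levels. The 4478 genes higher and 4245 lower in PANC-1 lie on either side of it, and FOXA2 sits at the left edge because no MIA PaCa-2 library had a read of it.

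Genes with reads almost exclusively from 1 line were more numerous in PANC-1. With at most 3 counts over the 3 libraries of the other line, 501 genes were found in PANC-1 and 149 in MIA PaCa-2. Among them, 128 and 23 reached a mean of 10 CPM. FOXA2, a pioneer transcription factor of endoderm, had 72.2, 70.2 and 80.1 CPM in PANC-1 and no read in any MIA PaCa-2 library, which is at least 1816-fold higher with a floor of 3 counts over the group, or 785-fold without MIA PaCa-2 replicate 1, the deepest library. ITGA2, the collagen-binding integrin alpha 2, had 321, 194 and 148 CPM in PANC-1 and 2 reads in MIA PaCa-2, both in replicate 2, a ratio of 8287-fold (95% counting interval 2294 to 68435). Without that replicate it was at least 4351-fold. In the other direction, UCA1, a long non-coding RNA known from bladder carcinoma, had 98.0, 155 and 153 CPM in MIA PaCa-2 and 3 reads in PANC-1, all in replicate 1, a ratio of 2412-fold (95% counting interval 825 to 11698) in favour of MIA PaCa-2. Without that replicate it was at least 1468-fold. CSF3, the granulocyte colony-stimulating factor, had 33.2, 20.4 and 16.3 CPM in MIA PaCa-2 and 1 read in PANC-1.

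Promoter sequence is shown for 4 genes that the lines split almost completely, 2 in each direction, chosen after their values were seen because these windows range from dense to sparse in CG pairs. The 250 bases before the RefSeq start are printed on the gene's strand, with each CG in capitals, from RefSeq on GRCh38.p14. The measured transcripts may start elsewhere. ITGA2 lies at chr5:52989102-52989351 on the plus strand and LDHB at chr12:21657843-21658092 on the minus strand, and both were high in PANC-1. ALDH1A1 lies at chr9:72953054-72953303 on the minus strand and RGS4 at chr1:163068621-163068870 on the plus strand, and both were high in MIA PaCa-2.
ITGA2: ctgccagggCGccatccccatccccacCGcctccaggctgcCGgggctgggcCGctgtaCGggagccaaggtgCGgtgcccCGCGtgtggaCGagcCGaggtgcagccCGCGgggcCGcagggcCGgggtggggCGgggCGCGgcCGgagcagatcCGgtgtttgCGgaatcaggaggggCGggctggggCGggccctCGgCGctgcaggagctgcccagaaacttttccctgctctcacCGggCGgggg
LDHB: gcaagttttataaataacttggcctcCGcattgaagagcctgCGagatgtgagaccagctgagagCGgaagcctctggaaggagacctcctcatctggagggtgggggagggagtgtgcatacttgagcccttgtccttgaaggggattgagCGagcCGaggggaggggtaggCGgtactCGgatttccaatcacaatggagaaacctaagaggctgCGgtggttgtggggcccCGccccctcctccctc
ALDH1A1: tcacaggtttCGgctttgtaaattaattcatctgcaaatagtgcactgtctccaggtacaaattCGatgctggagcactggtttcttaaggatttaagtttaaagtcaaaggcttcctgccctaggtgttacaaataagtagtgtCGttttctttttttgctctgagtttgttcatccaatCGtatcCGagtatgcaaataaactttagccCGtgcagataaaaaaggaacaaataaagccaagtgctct
RGS4: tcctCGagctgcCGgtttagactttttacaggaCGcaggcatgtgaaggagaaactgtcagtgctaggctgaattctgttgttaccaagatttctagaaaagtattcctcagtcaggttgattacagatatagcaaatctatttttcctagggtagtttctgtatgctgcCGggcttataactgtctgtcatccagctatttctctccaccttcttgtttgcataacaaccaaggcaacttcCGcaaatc
The window of ITGA2 holds 26 CG pairs, that of LDHB 9, that of ALDH1A1 6 and that of RGS4 5. A CG is found in 99.4% of the 10045 matched windows of tested protein-coding genes, with a median of 21. Windows rich in CG (at least 50% G or C and an observed-to-expected ratio of at least 0.6) made up 77.5% of 10046 tested protein-coding genes matched. They made up 61.8% of 15051 protein-coding genes with a window, whether tested or not. They made up 59.2% of the 76 matched genes that were at 10 CPM or more in PANC-1 and nearly silent in MIA PaCa-2, and 3 of 7 for the reverse. Methylation was not measured.

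Most markers of islet, acinar, endothelial, immune and stromal cells were at or near 0, apart from a few collagen, contractile and receptor genes and RGS5. Insulin, glucagon and somatostatin had no read in any of the 6 libraries, and the 9 islet markers summed to at most 0.173 CPM. Of 16 acinar markers matched, 1 could be tested, the bile salt lipase CEL (2.10, 2.71 and 2.74 CPM in MIA PaCa-2 and 1.51, 1.12 and 1.43 in PANC-1). The endothelial list summed to 3.30 to 13.4 CPM in MIA PaCa-2 and 2.73 to 3.76 in PANC-1, with PECAM1 at 0 in both. Among 14 immune and blood markers, CD3D, CD2, MS4A1, TYROBP and HBB had no read and PTPRC had 1 and 4 reads, whereas CD14, a receptor for bacterial lipopolysaccharide, had 20.8, 4.90 and 5.48 CPM in MIA PaCa-2 and 1.34, 1.33 and 2.21 in PANC-1. The fibroblast and stellate list summed to 1397 to 2306 CPM in MIA PaCa-2 and 149.6 to 252 in PANC-1, and most of it was COL1A2 and RGS5 in MIA PaCa-2 and COL1A1 in PANC-1, whose values are given below. The defining stromal genes PDGFRA, DCN, LUM and FAP had between 0 and 4 reads in either line. A list of neuroendocrine and neuronal genes was not near 0, and summed to 181 to 228 CPM in MIA PaCa-2 and 124 to 133 in PANC-1. In bulk libraries, fewer cells that carry a transcript and less of it per cell cannot be told apart.

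Most epithelial junction genes tested were higher in PANC-1. Of 25 epithelial adhesion genes tested (29 listed), 15 rose and 4 fell, so 76.0% were called against 54.1% of all genes. Their median log2 fold change was 1.18 against 0.01 over all genes. CDH1, which encodes E-cadherin, had 0.121, 0.0645 and 0 CPM in MIA PaCa-2 and 3.63, 19.4 and 9.89 in PANC-1 (adjusted p = 5.3e-05). The groups did not overlap, and PANC-1 replicate 1 was the lowest of its line. EPCAM, a surface glycoprotein of epithelia, had 0.0966, 0 and 0.0623 CPM in MIA PaCa-2 and 23.4, 30.5 and 29.3 in PANC-1 (adjusted p = 1.9e-07). CLDN3, a tight junction claudin, had no read in MIA PaCa-2 and 6.48, 13.01 and 16.8 CPM in PANC-1. SPINT1, an inhibitor of membrane serine proteases, had 0.0483, 0.0645 and 0.0623 CPM in MIA PaCa-2 and 6.86, 7.06 and 11.1 in PANC-1 (log2 fold change 7.10 ± 0.48 (SE), adjusted p = 1.2e-06). Desmosomal genes were mixed. Plakoglobin, encoded by JUP, rose (log2 fold change 1.51) and desmoplakin, encoded by DSP, was not called (-0.81). The plakophilin PKP2 had 19.9, 20.96 and 18.4 CPM in MIA PaCa-2 and 0.648, 2.66 and 1.56 in PANC-1 (log2 fold change -3.65 ± 0.42 (SE), adjusted p = 4.9e-05), and the desmoglein DSG2 had 52.3, 34.4 and 58.4 against 17.8, 26.4 and 17.5 (log2 fold change -1.24 ± 0.25 (SE), adjusted p = 0.0019).

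KRT8, KRT18 and KRT19, keratins of simple epithelia, were abundant in both lines and higher in PANC-1. Of 10 keratins tested (18 listed), 7 rose and 2 fell, with a median of 1.62. KRT8, which pairs with KRT18 in filaments, had 1328, 1569.7 and 1189 CPM in MIA PaCa-2 and 2364, 3711 and 3043 in PANC-1 (log2 fold change 1.16 ± 0.20 (SE), adjusted p = 0.00068). KRT18 had 995, 1151 and 938 CPM in MIA PaCa-2 and 1548, 1886 and 1803 in PANC-1 (log2 fold change 0.76 ± 0.16 (SE), adjusted p = 0.0022). KRT19, a ductal keratin, had 295, 357 and 364 CPM in MIA PaCa-2 and 961, 1929 and 1438 in PANC-1 (log2 fold change 2.09 ± 0.24 (SE), adjusted p = 5.4e-05). In none of these did the groups overlap. KRT7, another ductal keratin, was near 0 in MIA PaCa-2 (0.145, 0 and 0.187 CPM) and low in PANC-1 (7.08, 4.55 and 7.13 CPM). KRT15, a keratin of basal epithelial cells, was the reverse, at 128, 40.9 and 49.5 CPM in MIA PaCa-2 and 20.5, 25.7 and 29.6 in PANC-1 (log2 fold change -1.53 ± 0.39 (SE), adjusted p = 0.0068). Its difference was smaller without MIA PaCa-2 replicate 1, with a log2 fold change of -0.85.

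Of 13 regulators of epithelial identity tested, 5 rose and 3 fell, with a median of 0.90, so 61.5% were called against 54.1% of all genes. ESRP2, an epithelial splicing factor, had 0.193, 0.387 and 0.311 CPM in MIA PaCa-2 and 18.0, 36.6 and 34.0 in PANC-1 (log2 fold change 6.73 ± 0.42 (SE), adjusted p = 8.1e-07). Its paralogue ESRP1 was low and uneven in both lines (0.748, 1.35 and 2.24 against 0.259, 4.69 and 4.60 CPM) and was not called (adjusted p = 0.24, 95% interval -1.72 to 2.65). GRHL2, a master factor of epithelial junction genes, had 2 reads in MIA PaCa-2 against 3 in PANC-1. TP63, the factor of basal and squamous epithelia, had 361, 182 and 249 CPM in MIA PaCa-2 and 0.9497, 0.140 and 0.138 in PANC-1 (adjusted p = 5.4e-07). EHF, an epithelial ETS factor, had 113, 24.5 and 37.8 CPM in MIA PaCa-2 and 0.216, 0.0699 and 0.184 in PANC-1 (adjusted p = 8.1e-06). Both were therefore MIA PaCa-2 genes. TFAP2C, a factor of surface ectoderm and placenta, had no read in MIA PaCa-2 and 2.98, 3.85 and 4.51 CPM in PANC-1, whereas TFAP2A fell from 267, 308 and 270.5 to 128, 119.9 and 97.3 CPM (log2 fold change -1.29 ± 0.16 (SE), adjusted p = 8.8e-05).

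**Figure D2:**
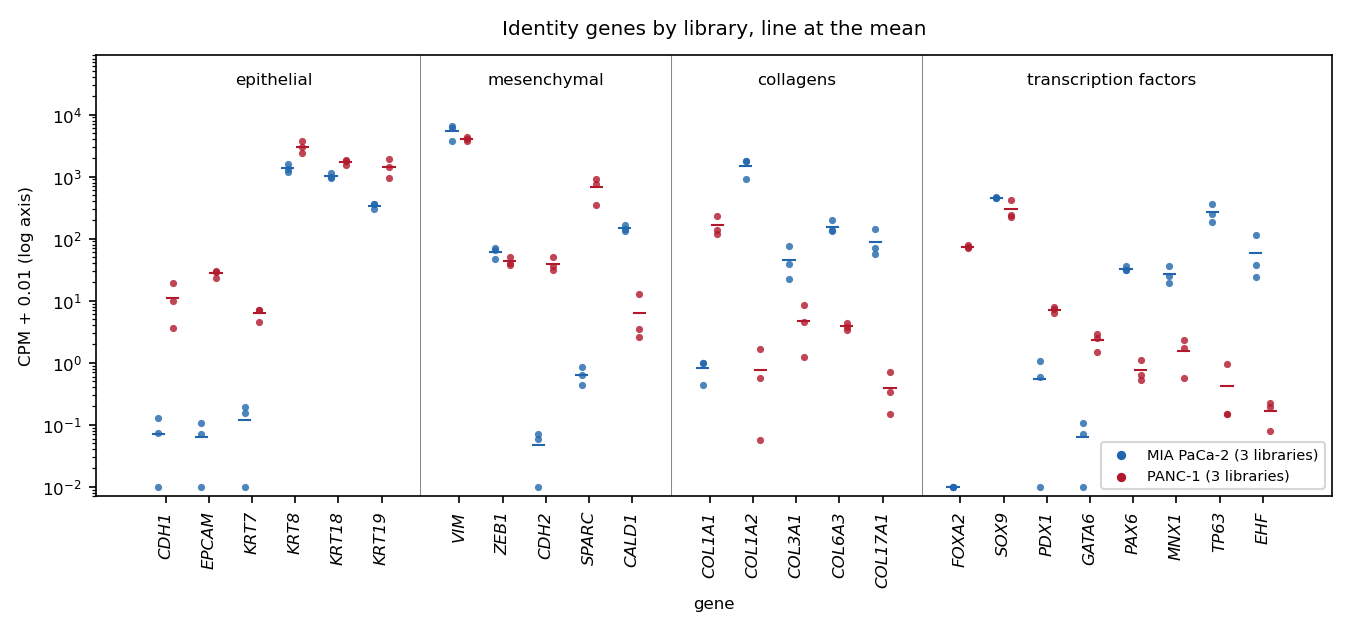
CPM with 0.01 added (y axis, log scale) of identity genes in the 3 MIA PaCa-2 and 3 PANC-1 control libraries, 1 point per library and a line at the mean. KRT8, KRT18 and KRT19 are high in both lines, CDH1, EPCAM, CDH2, SPARC, COL1A1 and FOXA2 are under 2 CPM in every MIA PaCa-2 library, and COL1A2, COL17A1, TP63 and EHF are under 2 CPM in every PANC-1 library.

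Mesenchymal genes did not follow the epithelial ones in the opposite direction. Of 21 tested, 10 rose and 6 fell in PANC-1, so 76.2% were called against 54.1% of all genes. The median of 0.09 ranged from -0.29 to 0.41 when 1 library was left out. It was negative without MIA PaCa-2 replicate 1 or PANC-1 replicate 1 (-0.24). VIM, the vimentin gene, had 3773, 6094 and 6440.2 CPM in MIA PaCa-2 and 4087, 4305 and 3772 in PANC-1 and was not called (log2 fold change -0.42, 95% interval -0.82 to 0.05, adjusted p = 0.11). ZEB1, a repressor of E-cadherin, had 69.8, 47.3 and 65.9 against 50.9, 40.4 and 37.3 CPM and was not called either (adjusted p = 0.055). CDH2, which encodes N-cadherin, was a PANC-1 gene, with 31.1, 51.3 and 36.3 CPM there and 3 reads in MIA PaCa-2, a ratio of 922-fold (95% counting interval 315 to 4474). So PANC-1 carried both cadherins and MIA PaCa-2 had at most traces of either. SPARC, a secreted matrix glycoprotein, had 0.628, 0.838 and 0.436 CPM in MIA PaCa-2 and 346, 908 and 766 in PANC-1 (log2 fold change 10.05 ± 0.47 (SE), adjusted p = 1.2e-07). FOXC2, a mesoderm forkhead factor, had 0.0966, 0.193 and 0 CPM in MIA PaCa-2 and 40.3, 24.1 and 23.1 in PANC-1 (log2 fold change 8.17 ± 0.51 (SE), adjusted p = 8.0e-07). The contractile genes TAGLN, ACTA2 and CALD1 were MIA PaCa-2 genes. CALD1, which encodes caldesmon, had 167, 133 and 143 CPM there and 12.6, 3.43 and 2.62 in PANC-1 (adjusted p = 4.6e-05). ACTA2 fell from 7.51, 3.29 and 6.79 to 1.25, 1.19 and 1.29 CPM (log2 fold change -2.24 ± 0.38 (SE), adjusted p = 0.00063). LOXL2, a lysyl oxidase that cross-links collagen, fell from 494, 562 and 632 to 138, 209 and 171 CPM (log2 fold change -1.70 ± 0.19 (SE), adjusted p = 3.8e-05).

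The pair of chains of type I collagen was split between the lines. COL1A1 had 0.435, 0.967 and 0.996 CPM in MIA PaCa-2 and 234, 119.9 and 137 in PANC-1 (log2 fold change 7.81 ± 0.41 (SE), adjusted p = 2.3e-07), and COL1A2 had 912, 1779.8 and 1791 CPM in MIA PaCa-2 and 1.68, 0.560 and 0.0460 in PANC-1 (adjusted p = 9.4e-07). Each line therefore had transcripts of 1 chain and at most traces of the other, where normal type I collagen holds both. Of 29 collagen and matrix genes tested, 15 rose and 11 fell, so 89.7% were called against 54.1% of all genes. The other 3 did not pass the test. The main chains of collagen IV, all 3 chains of collagen VI and collagen XVII were MIA PaCa-2 genes. COL4A2 fell from 47.0, 72.6 and 61.7 to 3.45, 4.76 and 2.44 CPM (log2 fold change -4.10 ± 0.29 (SE), adjusted p = 1.8e-06). COL6A3 fell from 133, 137 and 196 to 3.41, 3.78 and 4.42 CPM (log2 fold change -5.33 ± 0.24 (SE), adjusted p = 9.5e-08). COL17A1, the hemidesmosomal collagen, fell from 142, 71.4 and 56.6 to 0.691, 0.140 and 0.322 CPM (adjusted p = 1.2e-06). Nidogen and 6 of 8 laminin chains tested were PANC-1 genes. NID1, which encodes nidogen, had 0.0724, 0.0645 and 0.249 CPM in MIA PaCa-2 and 139.9, 279.8 and 176 in PANC-1. LAMC1, the common laminin chain, was not called (238, 216 and 313 against 232, 285 and 218 CPM, 95% interval -0.45 to 0.34). FN1, which encodes fibronectin, had 7 reads in MIA PaCa-2 against 24 in PANC-1 over 3 libraries, a deposited count that was not checked against the reads.

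Of 16 transcription factors of pancreas and endoderm tested (28 listed), 9 rose and 6 fell, with a median of 1.45. The share called was 93.8%, against 54.1% of all genes, but members that passed the filter through 1 line alone had to differ. Summed over all matched members, the list had 420 to 584 CPM in PANC-1 and 546 to 584 in MIA PaCa-2. Beside FOXA2, PDX1, the early pancreatic homeobox factor, was low in PANC-1 (6.30, 7.27 and 7.82 CPM) and lower still in MIA PaCa-2 (0.579, 0 and 1.06 CPM, adjusted p = 0.00085). GATA6, which marks classical tumours, was at or near 0 in MIA PaCa-2 (0.0966, 0 and 0.0623 CPM) and low in PANC-1 (2.89, 1.47 and 2.48 CPM, adjusted p = 6.4e-05). SOX9, a factor of ducts and progenitors, was well expressed in both lines, at 448, 446 and 469 CPM in MIA PaCa-2 and 422, 241 and 224 in PANC-1 (log2 fold change -0.62 ± 0.23 (SE), adjusted p = 0.042). That call was lost when any library other than PANC-1 replicate 1 was left out (adjusted p of 0.066 to 0.16). PAX6 fell from 30.9, 31.4 and 36.7 to 0.518, 0.629 and 1.10 CPM (log2 fold change -5.44 ± 0.32 (SE), adjusted p = 4.9e-07), and MNX1, of the early pancreatic bud and motor neurons, fell from 19.2, 35.8 and 24.8 to 0.561, 1.75 and 2.30 CPM (log2 fold change -4.12 ± 0.46 (SE), adjusted p = 4.0e-05).

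Few of the genes that sort tumours into subtypes could be tested. Of 6 classical genes tested (24 listed), 5 rose and 1 fell in PANC-1 (median 5.94). Of 9 basal-like genes tested (25 listed), 1 rose and 8 fell (median -1.53). Members that passed the filter through 1 line alone had to differ, so these counts and medians do not measure a lean. Summed over all matched members, classical genes had 161 to 240 CPM in PANC-1, most of it AGR2, and 2.15 to 8.41 in MIA PaCa-2. Basal-like genes summed to 97.6 to 139 CPM in PANC-1 and 413 to 506 in MIA PaCa-2. AGR2, a disulfide isomerase of mucous cells, had 183, 152 and 227 CPM in PANC-1 and 3 reads in MIA PaCa-2, a ratio of 4661-fold (95% counting interval 1595 to 22606). The trefoil peptide TFF3 was low (2.55, 1.47 and 4.88 CPM in PANC-1, 1 read in MIA PaCa-2), and LYZ, which encodes lysozyme, went against the list (1.54, 5.03 and 7.91 CPM in MIA PaCa-2 and 0.0863, 0 and 0.0920 in PANC-1). On the basal-like side, LEMD1, a cancer-testis gene, fell from 29.8, 22.6 and 28.4 to 0.130, 0.210 and 0.0460 CPM (log2 fold change -7.75 ± 0.39 (SE), adjusted p = 2.1e-07). AREG, the EGFR ligand amphiregulin, fell from 87.4, 42.7 and 34.4 to 4.62, 0.560 and 0.736 CPM (adjusted p = 0.00025). KRT7 was the basal-like member that rose.

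HOX and imprinted genes were weighted to PANC-1, and cancer-testis and oncofetal genes were not by summed level. Of 15 HOX genes tested (39 listed), 12 rose and 1 fell (median 2.06), against 27.8% and 26.3% of all genes. The HOX list summed to 413 to 628 CPM in PANC-1 and 148 to 164 in MIA PaCa-2. The posterior HOXC genes differed most. HOXC13 had 108, 158 and 147 CPM in PANC-1 and 2 reads in MIA PaCa-2, HOXC10 had 34.0, 44.5 and 39.8 CPM and 1 read, and HOXC11 had 31.4, 42.2 and 38.8 CPM and 1 read. HOXB2 was not called (64.3, 71.5 and 57.8 against 66.5, 75.7 and 68.9 CPM, 95% interval -0.22 to 0.47), and HOXA11 fell from 4.13, 3.48 and 4.17 to 1.47, 1.61 and 1.79 CPM (log2 fold change -1.27 ± 0.30 (SE), adjusted p = 0.0048). Of 8 cancer-testis and oncofetal genes tested (34 listed), 5 rose and 2 fell, and members that passed the filter through 1 line alone had to differ. The whole list summed to 808 to 899 CPM in PANC-1 and 830 to 1164 in MIA PaCa-2. HMGA2, a fetal chromatin protein that let-7 microRNAs repress, had 0.0483, 0.129 and 0.187 CPM in MIA PaCa-2 and 293, 136 and 138 in PANC-1 (adjusted p = 1.6e-07). LIN28B, which blocks let-7 maturation, had 0, 0.0645 and 0.187 CPM in MIA PaCa-2 and 10.2, 16.3 and 15.0 in PANC-1 (adjusted p = 5.4e-06). The IGF2 mRNA-binding proteins diverged. IGF2BP1 had 0.121, 0 and 0.0623 CPM in MIA PaCa-2 and 81.9, 122 and 107 in PANC-1, whereas IGF2BP3 fell from 758, 468 and 632 to 129, 179 and 158 CPM (log2 fold change -2.0 ± 0.21 (SE), adjusted p = 2.8e-05). DDX43, a cancer-testis helicase, had 54.6, 44.6 and 47.4 CPM in PANC-1 and no read in MIA PaCa-2, at least 1206-fold, or 522-fold without MIA PaCa-2 replicate 1.

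Of 15 imprinted genes tested (24 listed), 12 rose and 1 fell in PANC-1, so 86.7% were called against 54.1% of all genes. Their median was 5.03. The list summed to 972 to 1305 CPM in PANC-1 and 162 to 258 in MIA PaCa-2. The non-coding RNA H19 had 4.68, 6.64 and 4.11 CPM in MIA PaCa-2 and 228, 356 and 365 in PANC-1 (log2 fold change 5.95 ± 0.28 (SE), adjusted p = 1.2e-07), and its neighbour IGF2, a growth factor, had 2.08, 1.48 and 2.49 against 32.5, 8.18 and 11.4 (adjusted p = 0.00052). MEG3, the maternally expressed RNA of the DLK1 region, had 0.121, 0.0645 and 0 CPM in MIA PaCa-2 and 223, 173 and 81.8 in PANC-1 (adjusted p = 2.9e-07), and MEG8 of the same region had no read in MIA PaCa-2. PLAGL1, a zinc finger gene expressed from the paternal allele, had 13.2, 15.5 and 12.3 CPM in PANC-1 and 1 read in MIA PaCa-2. CDKN1C, a cell cycle inhibitor, was the member that fell, from 6.13, 33.7 and 39.5 to 8.03, 5.11 and 7.59 CPM (log2 fold change -1.92 ± 0.55 (SE), adjusted p = 0.013). MIA PaCa-2 replicate 1 was within the PANC-1 range for it, and the call was lost in limma-voom (adjusted p = 0.14) and without MIA PaCa-2 replicate 4 (0.06).

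**Figure D3:**
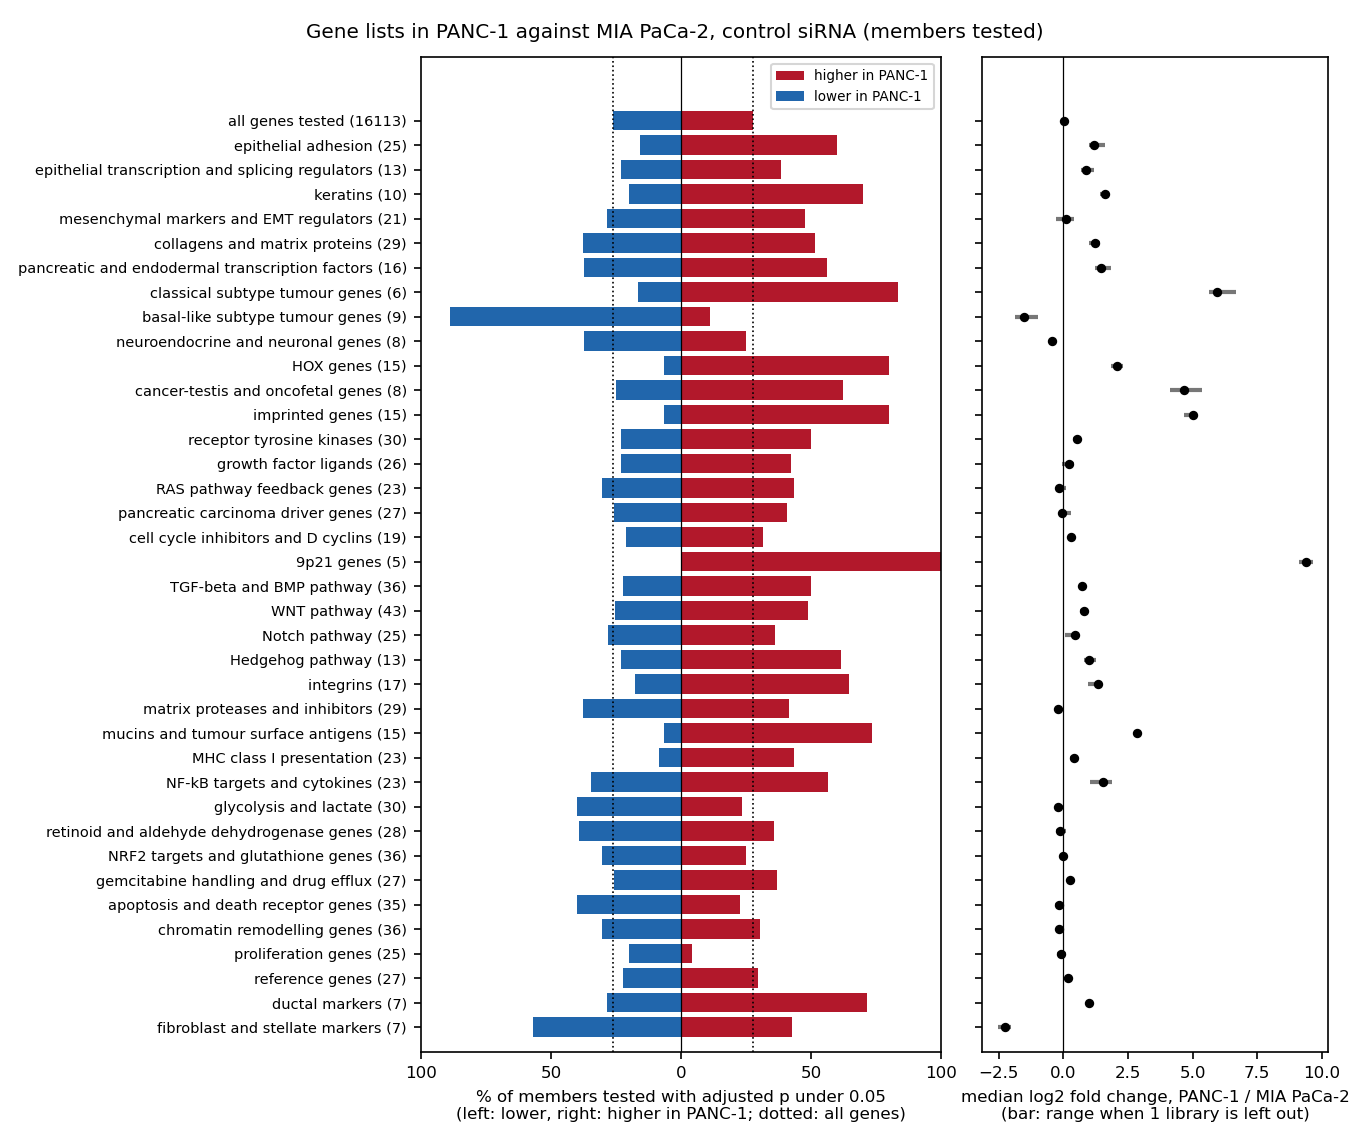
For each gene list with at least 5 members tested (number tested in brackets), the left bars give the percent of tested members higher (right) or lower (left) in PANC-1 at an adjusted p under 0.05, with dotted lines at the shares over all genes (27.8% and 26.3%). The right part gives the median log2 fold change, with a bar for its range when 1 library is left out: the 9p21, classical, imprinted and oncofetal lists have medians above 4, and the basal-like and fibroblast lists lie below -1.

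Among pancreatic carcinoma driver genes, 11 of 27 tested rose and 7 fell, so 66.7% were called against 54.1% of all genes. SMAD4, the common mediator of TGF-beta signals, fell from 67.6, 58.4 and 65.4 to 31.6, 35.3 and 24.9 CPM (log2 fold change -1.06 ± 0.18 (SE), adjusted p = 0.00072). CDKN2A, which encodes the p16 inhibitor, had 2 reads in MIA PaCa-2 against 1 in PANC-1, so neither line had more than a trace at this depth. Larger differences lay in chromatin and signalling genes. KDM6A, an X-linked histone demethylase, had 0.121, 0.322 and 0.0623 CPM in MIA PaCa-2 and 38.7, 34.7 and 28.3 in PANC-1 (log2 fold change 7.73 ± 0.40 (SE), adjusted p = 2.3e-07). TGFBR2, the type II TGF-beta receptor, had 0.145, 0.129 and 0.125 CPM in MIA PaCa-2 and 122, 82.7 and 87.5 in PANC-1 (log2 fold change 9.42 ± 0.32 (SE), adjusted p = 2.9e-08). RNF43, which removes WNT receptors from the surface, had 1 read in MIA PaCa-2 and 0.561, 4.13 and 3.22 CPM in PANC-1. The splicing factor SF3B1 and the kinase STK11 were not called in either direction (95% intervals -0.47 to 0.12 and -0.45 to 0.47).

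Transcripts of the SWI/SNF chromatin remodelling complex differed for several subunits. SMARCA4, which encodes the ATPase BRG1, had 327, 381 and 356 CPM in MIA PaCa-2 and 28.8, 22.9 and 22.1 in PANC-1 (log2 fold change -3.85 ± 0.18 (SE), adjusted p = 1.2e-07). Its alternative ATPase SMARCA2 had 15.9, 18.2 and 17.4 CPM in MIA PaCa-2 and 11.1, 14.7 and 13.2 in PANC-1 and was not called (95% interval -0.86 to 0.05, adjusted p = 0.13). ARID1B had 0.0966, 0.0645 and 0.125 CPM in MIA PaCa-2 and 119, 131 and 117 in PANC-1 (log2 fold change 10.24 ± 0.27 (SE), adjusted p = 1.6e-08). Its paralogue ARID1A, the more often mutated of the pair in this cancer, rose too, from 45.7, 38.4 and 43.03 to 204, 212 and 178 CPM (log2 fold change 2.22 ± 0.16 (SE), adjusted p = 1.8e-06). Over 36 chromatin remodelling genes tested, 11 rose and 11 fell, so 61.1% were called against 54.1% of all genes.

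Of 19 cell cycle inhibitors and D cyclins tested, 6 were higher and 4 lower, so 52.6% were called against 54.1% of all genes. CDKN1A, the p21 gene, had 8.26, 1.23 and 1.99 CPM in MIA PaCa-2 and 129.8, 72.5 and 59.4 in PANC-1 (adjusted p = 0.00018), and CDKN1B, the p27 gene, fell from 89.7, 113 and 105 to 36.2, 40.6 and 45.7 CPM (log2 fold change -1.33 ± 0.17 (SE), adjusted p = 9.7e-05). CCNE1, which encodes cyclin E1, was not called (95% interval -0.49 to 0.31). Proliferation genes had the lowest share of calls among the lists with at least 5 members tested: 1 of 25 rose and 5 fell. MKI67, the Ki-67 gene, had 301, 245 and 264 CPM in MIA PaCa-2 and 251, 364 and 352 in PANC-1 and was not called (adjusted p = 0.25, 95% interval -0.16 to 0.62). TOP2A, a topoisomerase of dividing cells, fell from 550.4, 571 and 571 to 259.9, 385 and 339 CPM (log2 fold change -0.78 ± 0.17 (SE), adjusted p = 0.003).

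Receptor tyrosine kinases were split between the lines. Of 30 tested, 15 rose and 7 fell (median 0.51), so 73.3% were called against 54.1% of all genes. EGFR had 285, 188 and 249.5 CPM in MIA PaCa-2 and 352, 270.5 and 236 in PANC-1 and was not called (adjusted p = 0.33, 95% interval -0.20 to 0.69). ERBB2, which encodes HER2, fell from 209, 263 and 222 to 22.0, 68.1 and 46.6 CPM (log2 fold change -2.35 ± 0.34 (SE), adjusted p = 0.00022), and ERBB3, its kinase-impaired partner, from 7.85, 11.9 and 17.6 to 1.12, 1.47 and 1.93 (log2 fold change -3.03 ± 0.38 (SE), adjusted p = 8.6e-05). MET, the hepatocyte growth factor receptor, rose from 33.4, 15.3 and 27.7 to 162, 89.3 and 73.8 CPM (log2 fold change 2.08 ± 0.34 (SE), adjusted p = 0.00055), and MST1R, its relative RON, had 0.990, 0.193 and 0 CPM in MIA PaCa-2 and 22.5, 34.8 and 27.1 in PANC-1. EPHA4, an ephrin receptor, had 196, 149 and 191 CPM in MIA PaCa-2 and 1.38, 0.490 and 1.15 in PANC-1 (log2 fold change -7.40 ± 0.31 (SE), adjusted p = 7.9e-08). DDR2, a collagen receptor, had 289, 118 and 166 against 3.76, 1.05 and 1.75 (adjusted p = 2.9e-06), and INSR, the insulin receptor, fell from 52.8, 44.8 and 68.4 to 2.03, 3.92 and 4.37 CPM (log2 fold change -4.02 ± 0.32 (SE), adjusted p = 3.6e-06). ROR2, a WNT5A receptor, rose from 0.338, 0.387 and 0.374 to 15.5, 21.1 and 18.5 CPM (log2 fold change 5.65 ± 0.31 (SE), adjusted p = 3.1e-07).

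Of the EGFR ligands tested, amphiregulin, epiregulin and betacellulin were MIA PaCa-2 genes, TGFA was low and higher in PANC-1 (log2 fold change 4.42, mean 1.61 CPM), and HBEGF was not called (0.37). EREG, which encodes epiregulin, had 404, 281 and 365 CPM in MIA PaCa-2 and 46.8, 6.22 and 3.68 in PANC-1 (log2 fold change -4.19 ± 0.79 (SE), adjusted p = 0.0013), and without PANC-1 replicate 1, the highest of its line, its log2 fold change was -6.16. BTC, betacellulin, had 32.7, 11.3 and 12.02 CPM in MIA PaCa-2 and 0.432, 0.0699 and 0.0920 in PANC-1 (adjusted p = 2.4e-05). Over 26 growth factor ligands, 11 rose and 6 fell, so 65.4% were called against 54.1% of all genes. GDF15, a stress-induced cytokine, had 6.83, 1.29 and 2.37 CPM in MIA PaCa-2 and 171, 247 and 511 in PANC-1 (adjusted p = 1.7e-05), and MDK, midkine, had 2.51, 3.87 and 4.30 against 196, 249 and 253 (log2 fold change 6.06 ± 0.26 (SE), adjusted p = 8.0e-08).

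Of 23 tested genes that RAS and ERK signals induce, 10 rose and 7 fell, so 73.9% were called against 54.1% of all genes. DUSP6, a phosphatase that switches off ERK, had 5.26, 0.838 and 0.809 CPM in MIA PaCa-2 and 128, 169 and 89.0 in PANC-1 (adjusted p = 4.0e-05), and IER3, an immediate early gene, rose from 21.8, 25.7 and 26.2 to 329, 213 and 229.5 CPM (log2 fold change 3.39 ± 0.21 (SE), adjusted p = 6.9e-07). SPRY2, a feedback inhibitor of receptor signals, fell from 244, 287 and 259 to 134, 61.0 and 51.8 CPM (log2 fold change -1.68 ± 0.31 (SE), adjusted p = 0.0012), and the ETS factor ETV4 fell from 45.9, 65.3 and 66.8 to 20.9, 13.9 and 24.7 CPM (log2 fold change -1.57 ± 0.25 (SE), adjusted p = 0.00039). MYC had 449, 513 and 509.6 CPM in MIA PaCa-2 and 211, 106 and 104 in PANC-1 (log2 fold change -1.80 ± 0.27 (SE), adjusted p = 0.00025).

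In the TGF-beta and BMP pathway, 18 of 36 genes rose and 8 fell (median 0.71), so 72.2% were called against 54.1% of all genes. The ligand TGFB2 had 0.193, 0.258 and 0.0623 CPM in MIA PaCa-2 and 73.8, 77.9 and 58.6 in PANC-1 (log2 fold change 8.59 ± 0.33 (SE), adjusted p = 6.0e-08), and TGFB1 rose from 33.6, 61.1 and 59.7 to 114, 99.6 and 99.2 CPM (log2 fold change 1.02 ± 0.23 (SE), adjusted p = 0.0034). LTBP1, which tethers latent TGF-beta to matrix, rose from 1.45, 0.838 and 0.560 to 69.2, 38.5 and 59.5 CPM (log2 fold change 5.76 ± 0.37 (SE), adjusted p = 9.8e-07), and its relative LTBP3 was not called (95% interval -0.25 to 0.46). The receptor TGFBR2 is described above. The co-receptor TGFBR3 fell from 72.3, 72.4 and 104 to 5.35, 20.7 and 19.4 CPM (log2 fold change -2.46 ± 0.42 (SE), adjusted p = 0.00068).

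The WNT pathway had 21 of 43 genes higher and 11 lower (median 0.81), so 74.4% were called against 54.1% of all genes. WNT7B, a ligand, had 0.0724, 0.129 and 0.311 CPM in MIA PaCa-2 and 168, 106 and 123 in PANC-1 (adjusted p = 7.5e-08). The secreted inhibitor-related protein DKK3 rose from 0.821, 0.774 and 0.436 to 165, 131 and 152 CPM (log2 fold change 7.71 ± 0.26 (SE), adjusted p = 2.9e-08). Among the Frizzled receptors, FZD8 fell from 52.9, 71.5 and 55.2 to 3.06, 2.24 and 2.62 CPM (log2 fold change -4.49 ± 0.24 (SE), adjusted p = 2.4e-07), FZD4 fell from 97.4, 91.3 and 103 to 8.16, 17.3 and 13.3 CPM (log2 fold change -2.92 ± 0.26 (SE), adjusted p = 8.5e-06), and FZD5 was not called (95% interval -0.48 to 0.49). CTNNB1, beta-catenin, was not called either (256, 239 and 204 against 235, 229.7 and 195 CPM, 95% interval -0.43 to 0.25).

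Of the 4 Notch receptors, NOTCH1, NOTCH3 and NOTCH4 were lower in PANC-1 and NOTCH2 was higher (log2 fold change 0.67). NOTCH3 fell from 85.1, 138 and 157 to 5.35, 14.2 and 12.6 CPM (log2 fold change -3.57 ± 0.37 (SE), adjusted p = 2.4e-05) and NOTCH1 from 60.7, 90.9 and 104 to 17.8, 28.9 and 25.1 (log2 fold change -1.83 ± 0.25 (SE), adjusted p = 0.00016). The ligand JAG2 fell from 113, 162 and 160.3 to 49.9, 68.3 and 64.3 CPM (log2 fold change -1.25 ± 0.20 (SE), adjusted p = 0.00037), JAG1 varied between libraries and was not called (adjusted p = 0.87, 95% interval -0.96 to 0.94), and DLL3, an inhibitory ligand, had 2.22, 4.00 and 3.11 CPM in MIA PaCa-2 and 168, 217 and 251 in PANC-1 (log2 fold change 6.13 ± 0.28 (SE), adjusted p = 1.1e-07). Over 25 genes of the pathway, 9 rose and 7 fell, so 64.0% were called against 54.1% of all genes. In the Hedgehog pathway, 8 of 13 rose and 3 fell, so 84.6% were called against 54.1% of all genes. The ligand SHH rose from 7.82, 3.93 and 2.86 to 42.4, 27.8 and 43.7 CPM (log2 fold change 2.93 ± 0.37 (SE), adjusted p = 8.9e-05), whereas the signal transducer SMO fell from 61.5, 73.8 and 66.4 to 5.09, 5.25 and 6.16 CPM (log2 fold change -3.61 ± 0.20 (SE), adjusted p = 2.9e-07). GAS1, a co-receptor, had 39.6, 47.2 and 27.3 CPM in MIA PaCa-2 and 0.259, 0.0699 and 0.138 in PANC-1 (log2 fold change -7.78 ± 0.41 (SE), adjusted p = 2.4e-07). GLI1, a target of the pathway, was low in both lines and higher in PANC-1 (0.507, 1.74 and 1.81 against 3.24, 6.36 and 6.12 CPM, log2 fold change 2.02 ± 0.50 (SE), adjusted p = 0.0063).

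Integrins differed by partner. The common chain ITGB1 was not called, at 1107, 976 and 1122 CPM in MIA PaCa-2 and 1151, 1114 and 1058 in PANC-1 (95% interval -0.24 to 0.34). ITGB4, the hemidesmosomal chain, fell from 605, 698 and 973 to 29.1, 56.7 and 67.2 CPM (log2 fold change -3.90 ± 0.32 (SE), adjusted p = 5.3e-06), although ITGA6, the alpha chain it binds, rose from 50.9, 24.1 and 46.6 to 157, 185 and 162 (log2 fold change 2.05 ± 0.26 (SE), adjusted p = 9.0e-05). ITGB5 rose from 70.0, 82.6 and 80.6 to 451, 412 and 477 CPM (log2 fold change 2.52 ± 0.16 (SE), adjusted p = 6.9e-07). Over 17 integrins tested, 11 rose and 3 fell (median 1.36), so 82.4% were called against 54.1% of all genes. Among matrix proteases and their inhibitors, 12 of 29 rose and 11 fell, so 79.3% were called. MMP2, a gelatinase, had 218, 296 and 203 CPM in PANC-1 and 3 reads in MIA PaCa-2, while TIMP2, which both inhibits MMP2 and helps to activate it, fell from 756, 759.9 and 838 to 83.1, 79.6 and 95.5 CPM (log2 fold change -3.19 ± 0.16 (SE), adjusted p = 1.8e-07). PLAUR, the urokinase receptor, had 79.9, 62.0 and 109.7 CPM in MIA PaCa-2 and 18.8, 4.83 and 5.43 in PANC-1 (adjusted p = 0.00037).

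Of 15 mucins and tumour surface antigens tested (35 listed), 11 were higher and 1 lower in PANC-1 (median 2.87). Called members made up 80.0%, against 54.1% of all genes, but those that passed the filter through 1 line alone had to differ. Summed over all matched members, the list had 3429 to 4031 CPM in PANC-1 and 2145 to 2290 in MIA PaCa-2. ANPEP, aminopeptidase N, had 0.241, 0 and 0.249 CPM in MIA PaCa-2 and 538, 303 and 429 in PANC-1 (log2 fold change 11.10 ± 0.45 (SE), adjusted p = 7.5e-08). MCAM, an adhesion molecule of melanoma and endothelium, had 0.507, 0.516 and 0.187 CPM in MIA PaCa-2 and 78.7, 50.8 and 63.6 in PANC-1 (log2 fold change 7.22 ± 0.34 (SE), adjusted p = 1.4e-07), and L1CAM, a neural adhesion molecule, rose from 21.9, 18.4 and 27.6 to 242, 364 and 348 CPM (log2 fold change 3.81 ± 0.23 (SE), adjusted p = 6.0e-07). MUC1, a membrane mucin, was higher too (27.6, 22.2 and 20.5 against 51.5, 42.2 and 45.5 CPM, log2 fold change 0.98 ± 0.19 (SE), adjusted p = 0.0014). CD44, the hyaluronan receptor, was high in both lines and not called (1829, 1916 and 1881 against 1733, 1713 and 1416 CPM, 95% interval -0.52 to 0.08, adjusted p = 0.26). CD24 is listed at 0 in all 6 libraries, which was not checked against the reads and is not read as absence of the transcript.

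Of 23 genes of MHC class I presentation tested, 10 were higher and 2 lower in PANC-1 (median 0.41). The share called was 52.2%, close to the 54.1% of all genes, of which 27.8% were higher and 26.3% lower. B2M, the light chain of class I molecules, rose from 356, 326 and 346 to 622, 697 and 714 CPM (log2 fold change 0.98 ± 0.14 (SE), adjusted p = 0.00023). The immunoproteasome subunit PSMB9 rose from 4.15, 2.45 and 4.23 to 17.1, 18.4 and 20.8 CPM (log2 fold change 2.36 ± 0.27 (SE), adjusted p = 5.2e-05). The chaperones CALR and CANX were not called (95% intervals -0.27 to 0.35 and -0.46 to 0.12).

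Inflammatory genes differed between the lines and also among the PANC-1 libraries. Of 23 NF-kB targets and cytokines tested, 13 rose and 8 fell (median 1.54), so 91.3% were called against 54.1% of all genes. ICAM1, a leukocyte adhesion molecule, had 0.193, 0.516 and 0.187 CPM in MIA PaCa-2 and 501, 219.9 and 232 in PANC-1 (log2 fold change 10.19 ± 0.51 (SE), adjusted p = 1.9e-07). CCL2, which attracts monocytes, had 273, 54.6 and 46.4 CPM in PANC-1 and 3 reads in MIA PaCa-2. BIRC3, an inhibitor of apoptosis, rose from 16.5, 20.8 and 22.9 to 564, 145 and 109 CPM (log2 fold change 3.77 ± 0.56 (SE), adjusted p = 0.00028), and its log2 fold change was 2.67 without PANC-1 replicate 1. In these 3 genes, as in IL18 (168, 42.5 and 49.0 CPM in PANC-1), BCL2A1 (65.1, 8.04 and 12.4) and CXCL8 (18.3, 1.96 and 2.48), PANC-1 replicate 1 was the highest library of its line. The neutrophil chemokines CXCL1, CXCL2, CXCL3, CXCL5, CXCL6 and CXCL8 were all MIA PaCa-2 genes. CXCL8 had 113, 63.3 and 89.3 CPM there (log2 fold change -3.51 ± 0.71 (SE), adjusted p = 0.0019), with a log2 fold change of -5.29 without PANC-1 replicate 1, and CXCL5 had 86.0, 64.0 and 48.9 CPM against 0.518, 0.350 and 0.0460 in PANC-1 (adjusted p = 7.3e-07).

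Of the lactate dehydrogenase subunits, 1 was nearly absent from MIA PaCa-2. LDHB, whose subunit favours the conversion of lactate to pyruvate, had 0.121, 0.451 and 0.187 CPM in MIA PaCa-2 and 513, 567 and 580.4 in PANC-1 (log2 fold change 11.31 ± 0.34 (SE), adjusted p = 1.8e-08), without overlap. Its level in MIA PaCa-2 was 15 reads in all. LDHA, the subunit typical of muscle and tumours, had 661, 889.9 and 683 against 1006, 1238 and 1063 CPM (log2 fold change 0.57 ± 0.17 (SE), adjusted p = 0.017), a call that was lost without MIA PaCa-2 replicate 4 (adjusted p = 0.076) or PANC-1 replicate 2 (0.073). Of 30 glycolysis and lactate genes tested, 7 rose and 12 fell (median -0.22), so 63.3% were called against 54.1% of all genes. PFKL, the liver phosphofructokinase, fell from 374, 506 and 414 to 78.6, 89.8 and 97.3 CPM (log2 fold change -2.29 ± 0.17 (SE), adjusted p = 2.9e-06), and the glucose transporter SLC2A3 fell from 18.5, 22.1 and 18.9 to 0.0432, 0.280 and 0.230 CPM (log2 fold change -6.80 ± 0.43 (SE), adjusted p = 8.6e-07). SLC16A3, a lactate exporter, rose from 125, 222 and 176 to 409, 566 and 547 CPM (log2 fold change 1.54 ± 0.23 (SE), adjusted p = 0.00025). PGK1 and PGAM1 were not called (95% intervals -0.21 to 0.39 and -0.27 to 0.44).

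Retinoid and aldehyde dehydrogenase genes were split between the lines, with 10 of 28 higher and 11 lower in PANC-1. This makes 75.0% called, against 54.1% of all genes. ALDH1A1, which makes retinoic acid and marks stem-like tumour cells, had 1153, 1436 and 1231 CPM in MIA PaCa-2 and 2.16, 0.490 and 0.460 in PANC-1 (adjusted p = 1.9e-07). ALDH7A1 fell from 434, 550.1 and 620.2 to 61.6, 59.1 and 70.3 CPM (log2 fold change -3.07 ± 0.18 (SE), adjusted p = 5.8e-07), and ALDH2, the mitochondrial enzyme of ethanol metabolism, was at or near 0 in MIA PaCa-2 and at 11.96, 6.92 and 9.85 CPM in PANC-1. CRABP2, which carries retinoic acid to the nucleus, had 0.290, 0.387 and 0.187 CPM in MIA PaCa-2 and 221, 429 and 315 in PANC-1 (log2 fold change 10.10 ± 0.38 (SE), adjusted p = 4.4e-08). ALDH1B1 was not called (95% interval -0.38 to 0.36).

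Of 36 NRF2 targets and glutathione genes tested, 9 rose and 11 fell, so 55.6% were called, close to the share over all genes. NQO1, a quinone reductase, fell from 578, 671 and 690.1 to 254, 209 and 255 CPM (log2 fold change -1.43 ± 0.16 (SE), adjusted p = 3.8e-05). The aldo-keto reductase AKR1C1 had 94.99, 149 and 163 CPM in MIA PaCa-2 and 0.302, 0.210 and 0.184 in PANC-1 (log2 fold change -9.13 ± 0.35 (SE), adjusted p = 4.9e-08), and its near-identical paralogue AKR1C2 had 8.64, 12.1 and 14.1 CPM in MIA PaCa-2 and 2 reads in PANC-1, so reads shared between the pair could be split either way. The efflux pump ABCC1 rose from 77.9, 68.6 and 93.3 to 443, 628 and 601 CPM (log2 fold change 2.80 ± 0.20 (SE), adjusted p = 1.7e-06) and ABCC2 fell from 85.0, 54.3 and 78.2 to 8.63, 6.92 and 3.96 (log2 fold change -3.48 ± 0.31 (SE), adjusted p = 7.9e-06).

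Genes that handle gemcitabine, the nucleoside drug used in this cancer, were compared because these lines serve as drug models. SLC29A1, the transporter that takes the drug up, rose from 107, 106 and 84.2 to 292, 339.7 and 342 CPM (log2 fold change 1.71 ± 0.16 (SE), adjusted p = 1.3e-05). DCK, which phosphorylates it first, rose from 20.4, 15.8 and 15.6 to 32.1, 31.0 and 33.0 CPM (log2 fold change 0.89 ± 0.19 (SE), adjusted p = 0.003). CDA, which inactivates it, was low in both lines (0.700, 1.93 and 3.24 against 0.259, 0.979 and 0.506 CPM, log2 fold change -1.76 ± 0.64 (SE), adjusted p = 0.037), and its call was lost in limma-voom (adjusted p = 0.089) and without any of 4 libraries in turn, MIA PaCa-2 replicate 2 or 4 or PANC-1 replicate 1 or 4 (0.081 to 0.17). RRM1, a target of the drug, was not called (252, 264 and 199.6 against 218, 239.9 and 221 CPM, 95% interval -0.41 to 0.27). Pyrimidine salvage and breakdown differed more. DPYD, which degrades fluorouracil, fell from 196, 189 and 179 to 6.95, 7.13 and 5.24 CPM (log2 fold change -4.87 ± 0.19 (SE), adjusted p = 6.2e-08), UPP1 rose from 20.2, 13.3 and 14.9 to 346, 235 and 338 (log2 fold change 4.24 ± 0.24 (SE), adjusted p = 3.5e-07), and TYMP, thymidine phosphorylase, rose from 0.531, 0.451 and 0.498 to 41.7, 31.5 and 38.2 (log2 fold change 6.20 ± 0.27 (SE), adjusted p = 9.1e-08). The pump ABCC3 rose from 3.77, 4.06 and 4.05 to 122, 127 and 139.6 CPM (log2 fold change 5.03 ± 0.18 (SE), adjusted p = 3.6e-08). Over the 27 genes of the list, 10 rose and 7 fell, so 63.0% were called against 54.1% of all genes. Drug response was not measured.

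Of 35 apoptosis genes tested, 8 were higher and 14 lower in PANC-1, against 27.8% and 26.3% of all genes. The median log2 fold change of -0.18 was 0.04 without MIA PaCa-2 replicate 1 and between -0.33 and -0.09 without each of the others, and in the RBM3 siRNA libraries 11 were higher and 12 lower. CASP10, an initiator caspase, fell from 20.6, 21.3 and 26.0 to 0.130, 0.560 and 0.920 CPM (adjusted p = 8.2e-06), and TNFRSF10D, a decoy receptor for TRAIL, from 57.3, 67.9 and 87.4 to 20.8, 11.7 and 9.94 (log2 fold change -2.32 ± 0.29 (SE), adjusted p = 9.3e-05). Of 27 reference genes, 8 rose and 6 fell, so 51.9% were called, close to the share over all genes. ACTB was not called (4011, 7177 and 6392 against 4229.7, 4109 and 3834 CPM, adjusted p = 0.057), GAPDH fell from 2177, 4030.0 and 3494 to 1921, 2184 and 2039.6 CPM (log2 fold change -0.66 ± 0.22 (SE), adjusted p = 0.026), a call lost without MIA PaCa-2 replicate 2 or 4 or PANC-1 replicate 1 or 4 (0.062 to 0.078), and RPL13A fell from 985, 1604 and 1433 to 570.3, 532 and 579 (log2 fold change -1.26 ± 0.19 (SE), adjusted p = 0.00033). YWHAZ was not called (1028, 1049.5 and 1096 against 1075, 1049 and 953 CPM, 95% interval -0.33 to 0.24).

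Among the most abundant genes that differed by 16-fold or more, PANC-1 was marked by AKAP12, a scaffold of protein kinase A (17.8, 14.5 and 16.7 CPM in MIA PaCa-2 and 1450.4, 1194 and 1118 in PANC-1, log2 fold change 6.26 ± 0.20 (SE), adjusted p = 2.9e-08). MFGE8, a secreted protein that bridges dying cells to phagocytes, rose from 20.5, 28.4 and 28.1 to 751, 1397 and 1037 CPM (log2 fold change 5.38 ± 0.28 (SE), adjusted p = 2.2e-07). APOE, the lipid carrier, rose from 2.00, 2.77 and 2.62 to 409.9, 439 and 594 CPM (log2 fold change 7.64 ± 0.26 (SE), adjusted p = 2.9e-08). VWA1, a matrix protein, had 0.386, 0.387 and 0.374 CPM in MIA PaCa-2 and 515, 623 and 725 in PANC-1 (log2 fold change 10.64 ± 0.26 (SE), adjusted p = 1.6e-08). MIA PaCa-2 was marked by PODXL, a sialomucin of kidney podocytes and stem cells, with 1320.1, 1037 and 1411 CPM against 32.4, 30.8 and 13.5 (log2 fold change -5.62 ± 0.35 (SE), adjusted p = 6.9e-07). A pair of regulators of G protein signalling lay on that side as well. RGS4 had 1278, 1167 and 1221 CPM in MIA PaCa-2 and 3.67, 0.140 and 0.644 in PANC-1 (adjusted p = 2.6e-06), and RGS5 had 454, 444 and 391 against 0.863, 0.210 and 0.828 (log2 fold change -9.30 ± 0.34 (SE), adjusted p = 3.6e-08). SGK1, a kinase induced by glucocorticoids and serum, had 706, 643 and 719.5 CPM in MIA PaCa-2 and 26.6, 12.4 and 3.59 in PANC-1 (adjusted p = 2.8e-05), and SEMA3A, an axon guidance cue, fell from 681, 438 and 519 to 29.4, 28.3 and 23.6 CPM (log2 fold change -4.33 ± 0.22 (SE), adjusted p = 1.8e-07).

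Differences were unevenly spread over the chromosomes. Gene positions here are order and chromosome only, from GENCODE 29 on GRCh38, since the counts were made on hg19. On chromosome 21, 12.5% of 160 tested genes were higher and 59.4% lower in PANC-1, with a median log2 fold change of -0.77. Chromosome 14 had 12.7% higher and 43.1% lower (median -0.44). Chromosome 11 had 42.7% of 843 genes higher and 118 genes lower (median 0.43), and chromosome 15 had 40.8% higher and 14.2% lower (median 0.47). In the RBM3 siRNA libraries, which are other libraries of the same lines, the medians of these chromosomes were -0.75, -0.42, 0.42 and 0.50. DNA copy number was not measured.

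**Figure D4:**
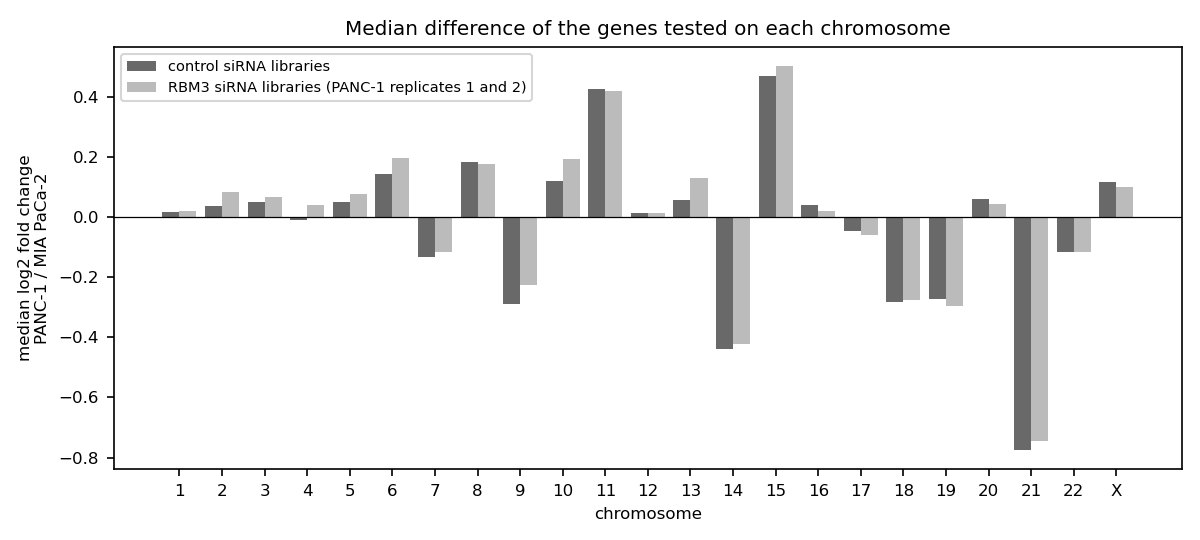
Median log2 fold change, PANC-1 over MIA PaCa-2, of the genes tested on each chromosome (x axis), in the control siRNA libraries (dark) and in the RBM3 siRNA libraries without PANC-1 replicate 3 (light). Chromosomes 21 (-0.77) and 14 (-0.44) lie lowest and 15 (0.47) and 11 (0.43) highest, and the paired bars lie close together on every chromosome.

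Within chromosomes, 15 runs of at least 4 neighbouring tested protein-coding genes were 8-fold or more lower in 1 line, 14 of them in MIA PaCa-2. Several of the 14 lie in 1 stretch of chromosome 19 described below. Genes there were not silent in MIA PaCa-2, such as SUPT5H at a mean of 198 CPM. A run on chromosome 9 covered MLLT3, FOCAD, KLHL9, DMRTA1 and TUSC1, around the CDKN2A locus. KLHL9, a ubiquitin ligase adaptor, had no read in MIA PaCa-2 and 19.1, 14.8 and 11.6 CPM in PANC-1. DMRTA1, a doublesex-related factor, and TUSC1, a candidate suppressor, also had no read in MIA PaCa-2, with 5.14, 2.94 and 3.31 and 5.27, 6.43 and 7.09 CPM in PANC-1. FOCAD had 0.0724, 0.129 and 0.249 CPM in MIA PaCa-2 and 13.8, 15.7 and 16.4 in PANC-1 (log2 fold change 6.82 ± 0.42 (SE), adjusted p = 6.5e-07). The genes next to the run, ACER2 and CAAP1, went the other way, with log2 fold changes of -1.74 and -1.22. So did the 7 tested genes before ACER2, the farthest of which, CNTLN, had a mean of 33.9 CPM in MIA PaCa-2 against 0.0898 in PANC-1. CDKN2B and MTAP, which lie beside CDKN2A, had no read in any of the 6 libraries.

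A stretch of chromosome 19 stood higher in PANC-1 throughout. It holds 3 of the runs, and from PAF1 to AKT2 all 20 tested protein-coding genes were called higher in PANC-1, with log2 fold changes of 1.53 to 6.41 and a median of 3.47. The stretch was put together from the runs after their values were seen. PAF1, a subunit of an RNA polymerase II elongation complex, had 70.4, 93.1 and 70.7 CPM in MIA PaCa-2 and 1359, 1617 and 1567 in PANC-1 (log2 fold change 4.28 ± 0.19 (SE), adjusted p = 9.9e-08). SUPT5H, another elongation factor, rose from 183, 206 and 206 to 2053, 1811 and 1689.7 CPM (log2 fold change 3.22 ± 0.16 (SE), adjusted p = 1.9e-07). AKT2, a kinase downstream of PI3K, rose from 148, 189 and 161 to 1944, 2122 and 2024 CPM (log2 fold change 3.61 ± 0.17 (SE), adjusted p = 1.2e-07), and PLEKHG2, a guanine nucleotide exchange factor, from 56.6, 52.4 and 61.0 to 1335, 1537 and 1424 (log2 fold change 4.66 ± 0.17 (SE), adjusted p = 3.7e-08). Right after AKT2, C19orf47 had a log2 fold change of 0.46 and was not called, and PLD3 next to it was lower in PANC-1 (-1.25). Before PAF1 there was no such edge, as the plot of neighbouring genes shows. There SAMD4B (2.69), GMFG (1.86), NCCRP1 (5.08), PAK4 (1.75), ACP7 (10.45) and FBXO27 (4.24) were also called higher in PANC-1. LRFN1 (0.58) and IFNL1 (0.91), between them, were not called.

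**Figure D5:**
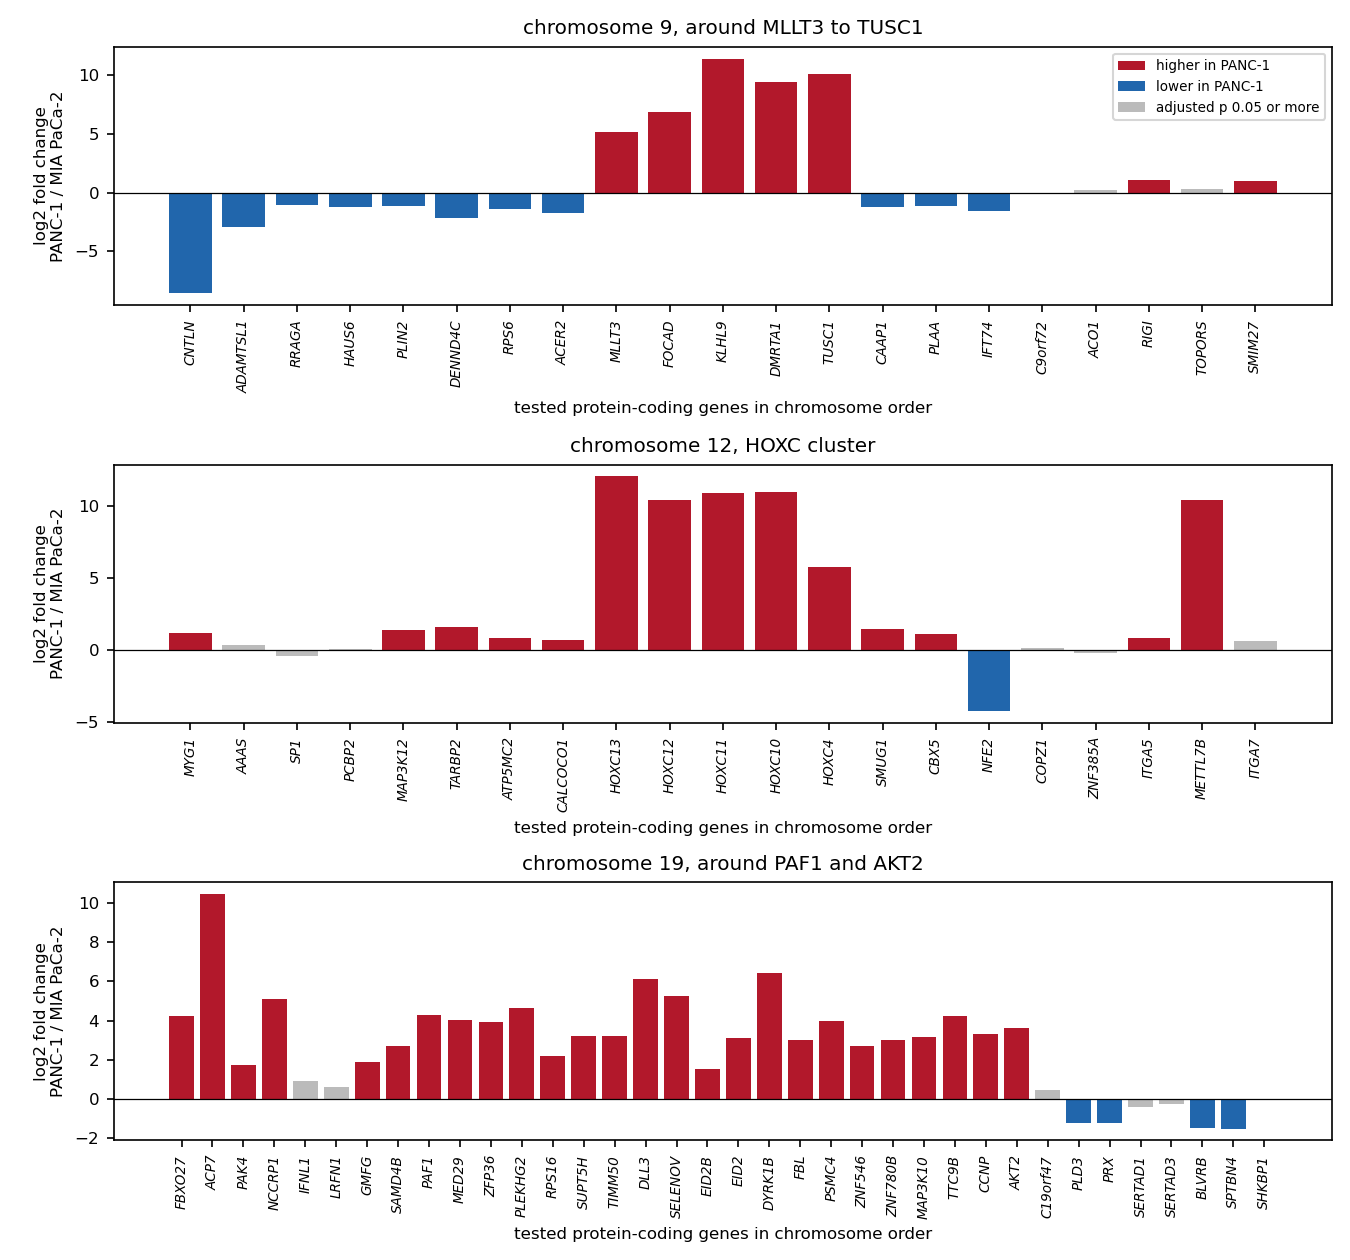
Bars in 3 regions give the log2 fold change, PANC-1 over MIA PaCa-2 (y axis), of tested protein-coding genes in chromosome order (x axis, evenly spaced), with 8 genes on each side of the region, coloured by the call. MLLT3 to TUSC1 stand above all neighbours shown, the HOXC genes stand above all their neighbours shown but METTL7B, and on chromosome 19 the 20 genes from PAF1 to AKT2 are all at 1.53 or more and the next, C19orf47, is at 0.46. Most genes shown before PAF1 are called higher too, with ACP7 at 10.45.

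The HOXC run held HOXC13, HOXC12, HOXC11, HOXC10 and HOXC4 between CALCOCO1 and SMUG1, whose log2 fold changes were 0.69 and 1.49. On chromosome 10, a run of 6 genes from RHOBTB1 to ZNF365 included ARID5B, a chromatin factor (0.169, 0.0645 and 0.0623 CPM in MIA PaCa-2 and 41.4, 46.1 and 31.5 in PANC-1), and RTKN2 (0.0966, 0.0645 and 0.187 against 62.3, 73.9 and 73.2 CPM, log2 fold change 9.23 ± 0.31 (SE), adjusted p = 2.9e-08). CDK1, just before the run, differed little, with a log2 fold change of 0.52. A run of 6 protocadherin beta genes on chromosome 5 were at 0 or near 0 in MIA PaCa-2, PCDHB2 with 9.15, 11.7 and 12.3 CPM in PANC-1. A run on chromosome 6 ended with CCN2, a matricellular target of YAP (0.362, 0.451 and 0.747 CPM in MIA PaCa-2 and 537, 195 and 151 in PANC-1), and 1 on chromosome 3 held PLOD2, a collagen lysyl hydroxylase (1.23, 0.193 and 0.311 against 280.2, 346 and 212 CPM). The other runs lower in MIA PaCa-2 were ADGRL2 to SAMD13 on chromosome 1, SMPDL3A to RNF217 on 6, HGF to SEMA3E on 7, KLHL14 to MAPRE2 on 18 and RADX to MORC4 on X. The run lower in PANC-1 was a set of kallikrein proteases on chromosome 19. KLK6 had 122, 81.2 and 58.8 CPM in MIA PaCa-2 and 0.389, 0 and 0 in PANC-1, KLK5 had 19.7, 10.7 and 12.95 against 0.0863, 0 and 0, and KLK7 and KLK10 went the same way. In KLK5 and KLK6, PANC-1 replicate 1 was the highest library of its line.

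The line difference was then measured again in libraries that share no sample with the controls, those given RBM3 siRNA. In them RBM3 itself, scaled over all 12 libraries, had 44.4, 37.4 and 61.9 CPM in MIA PaCa-2 against 206.6 to 277 in its controls, and 96.5 and 195 CPM in PANC-1 replicates 1 and 2 against 426 to 567. PANC-1 replicate 3 of that group carried MIA PaCa-2 transcripts and was left out. Of 18208 genes tested, 4423 (24.3%) were higher and 3847 (21.1%) lower in PANC-1. Over 16104 genes tested in both comparisons, log2 fold changes correlated across genes at 0.973 (Pearson) and 0.952 (Spearman), where genes are not independent replicates and both sets share the lines and the laboratory. Genes called higher in both numbered 3681, which is 82.2% of the control calls and 83.2% of the siRNA calls. Genes called lower in both numbered 3184, which is 75.0% and 82.8%, and no gene was called in opposite directions. For LDHB the log2 fold change was 12.01 in the siRNA libraries, for SPARC 9.94, for AKT2 3.58 and for SMARCA4 -3.96.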

How the data were processed

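RNA of 12 libraries, 6 of them used for the main comparison, was read as paired-end 75 bp fragments from TruSeq v2 libraries, per the labels' protocols. The authors deposited raw counts per gene, made with STAR 2.5.2a, Picard and featureCounts (Subread) on hg19 (GRCh37), per the submitters' processing notes. For the annotation release, strand setting and duplicates the sources used here give nothing, so overlapping, antisense and near-identical genes may share reads. Symbols came from a table of names that held 52181 of 63677 rows, and 39699 had a symbol.

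Counts were tested with edgeR 4.0.16 (R 4.3.3) by the quasi-likelihood F-test after TMM scaling and filterByExpr with a minimum count of 10, as PANC-1 minus MIA PaCa-2 in the 6 control libraries, with 4 residual degrees of freedom and Benjamini-Hochberg adjustment over 16113 genes at 0.05. Standard errors are the fold change over the root of F. The RBM3 siRNA libraries were fitted separately, without PANC-1 replicate 3. "Alike" means a 95% limma-voom interval (limma 3.58.1) within 0.5 log2 units of 0. Floors (3 counts) and counting intervals cover counting error only. At 3 against 3, an exact permutation test cannot go below 0.1, and none was used. Replicate numbers 1, 2 and 4 recur in both lines and were not used as pairs in the main fit. DESeq2 1.42.0, other scalings and filters, and leaving out each library were alternatives.

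The libraries compared and the gene lists were chosen with earlier results of these data known. Named genes were the 12 most abundant per direction at 16-fold or more without overlap, up to 4 per list and direction with the largest changes at 2 CPM or more, up to 2 alike per list, defining genes, and members of runs. A few neighbours and relatives outside that rule were named after their values were seen. A run is 4 or more neighbouring tested protein-coding genes, all 8-fold or more different in 1 direction. Y-linked genes were not described. Some genes are not reported here.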

Additional observations from a re-analysis of the deposited data

Results flagged for a closer look

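In a library that the comparison of the control libraries did not use, PANC-1 given RBM3 siRNA, replicate 3, 11 genes abundant in MIA PaCa-2 and near 0 in PANC-1 summed to 38.6% of their level in the MIA PaCa-2 controls. The same genes stood at 0.288%, 0.0598% and 0.0620% in the 3 PANC-1 control libraries. That library therefore held transcripts of the other line far above the level in the controls. It entered no main comparison. The source of these transcripts was not tested.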

How the results depend on the processing

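Of 331 genes named by the rule and called, none reversed its direction under the alternatives run. Named genes that were not called, and those outside the rule, were not checked for reversal. Of the 331, 310 kept the call under all alternatives other than the 2-fold threshold, and 21 lost it under at least 1. Leaving out 1 library moved the fold of 115 by over 1.5 times, 66 of them without MIA PaCa-2 replicate 1, the deepest library, and 39 without PANC-1 replicate 1. Fewer calls remained when a difference above 2-fold was tested (glmTreat), with 2250 higher and 1658 lower. Without each library in turn, 3961 to 4464 genes were higher and 3617 to 4180 lower in the control libraries, and 3399 to 4397 higher and 2507 to 3863 lower in the RBM3 siRNA libraries, the lowest count being without PANC-1 replicate 2. With PANC-1 replicate 3 kept in, 1949 were lower there, and the cause was not tested. With the replicate number as a block, 4473 were higher and 4200 lower in the controls (4349 and 3885 in the siRNA libraries). Same-numbered control libraries deviated together by correlations of 0.15, -0.05 and 0.03, against -0.22 to 0.23 for differently numbered ones. With 3 libraries a line, these values cannot settle whether the numbers mark pairs. DESeq2 gave 4578 higher and 4138 lower, and limma-voom 4521 and 4280. Depth (3 counts are 0.0757 to 0.211 CPM) limits what can be said of genes near 0, and with 3 libraries a line the spread is poorly known.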
